A study of Solanum lycopersicum with 4 samples.

Results

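The class I KNOX genes of tomato (Solanum lycopersicum) were followed in the wild-type shoot apical meristem as it passed to flowering. The 4 members, TKN1, TKN2, TKN3 and TKN4, were taken by identifier from a table of 34722 genes: Solyc04g077210.2, Solyc02g081120.2, Solyc05g005090.2 and Solyc01g100510.2. The table itself holds no gene names. RefSeq lists genes under these names or synonyms (KN1 for TKN1, T6 for TKN2, TKN3, and KN4 for TKN4) on chromosomes 4, 2, 5 and 1, which are the chromosomes written in the identifiers.

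RNA was sequenced from meristems dissected out of acetone-fixed wild-type seedlings raised in a greenhouse for 2 to 12 days. The transitional group held 2 libraries, A and B, from wild-type meristems at floral transition. The vegetative group held 2 libraries, C and D, from wild-type vegetative meristems that had made 6 leaves. No agent or transgene is given for either group. The series' design also names the late termination mutant, which is not analysed here. The number of plants behind a library, and whether the libraries of a group come from different plants, is not given, so that p-values cover the spread among the libraries in hand, part or all of which may be technical.

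Class I KNOX proteins are homeodomain transcription factors made in the shoot meristem, where they keep cells from differentiating. They act together with BELL homeodomain partners, raise cytokinin synthesis, and hold gibberellin low by repressing GA20ox genes of gibberellin synthesis and by activating GA2ox genes of gibberellin breakdown. In tomato they are also active in young compound leaves, and excess activity of TKN2, the gene also known as LeT6, gives leaves that branch repeatedly. The comparison asks whether their transcripts differ between meristems turning to flowering and vegetative ones.

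Libraries A and B held 21977345 and 22094423 reads in genes, and C and D held 16141074 and 23043526. Values are the authors' normalised counts, which are reads per gene scaled by a size factor for each library. Of the 7 identifiers entered as floral meristem genes, 5 rose at the transition, where limma called 2.70% of all tested genes higher. The count was 4 by edgeR and without transitional B, 3 without transitional A, and 0 without the filter on low values and without vegetative C or D. Their summed level was 9478 to 12397 normalised counts in transitional libraries and 5643 to 5650 in vegetative ones. No marker stood at 0 in both libraries of a group. Within the vegetative pair, 5 of the 7 stood higher in C than in D. The list was chosen with earlier results of these data known, so these counts are not an independent check of stage.

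All 4 class I KNOX genes were expressed at both stages, and all 4 stood lower on average at the transition, by 5.26% to 16.3% of the vegetative mean. None of the 4 was called by limma, the linear-model test run over the 19607 genes whose mean reached 5 normalised counts, at a Benjamini-Hochberg adjusted p under 0.05. In that test 3.89% of genes were called in either direction and 1.19% were called lower. At an unadjusted p under 0.05, 2 of the 4 stood lower, TKN2 and TKN3, against 7.91% of all tested genes. Among tested genes with a mean of 1000 to 10000 normalised counts, which hold all 4 members, that share was 12.3%. edgeR's quasi-likelihood test, DESeq2 and limma-voom on the recovered reads called 0 of the 4 as well, while calling 3.53%, 4.75% and 2.90% of genes. An estimate below 0 was itself common, at 48.9% of tested genes. In bulk tissue a smaller share of KNOX-expressing cells and less KNOX RNA per cell cannot be told apart.

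TKN2, the homologue of the Arabidopsis gene SHOOT MERISTEMLESS, gave the most reads of the family. It had 7267 and 6457 normalised counts in transitional libraries A and B, against 8255 and 7953 in vegetative C and D. Both transitional libraries lay below both vegetative ones, an arrangement that 24.3% of tested genes also showed. Means were 6862 ± 573 in transitional and 8104 ± 213 in vegetative meristems (SD, n = 2 each). The log2 change was -0.24 (SE 0.09, limma adjusted p = 0.224), and its 95% interval, not adjusted for the number of genes, covered folds of 0.730 to 0.980.

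TKN3, a further class I member, stood lower in the same arrangement as TKN2. Its values were 1583 and 1490 normalised counts in transitional libraries A and B, against 1929 and 1745 in vegetative C and D. The groups again did not overlap. The means were 1537 ± 65.7 in transitional and 1837 ± 130 in vegetative meristems (SD, n = 2 each), a log2 change of -0.26 (SE 0.09, limma adjusted p = 0.177). Of all tested genes 12.9% had a lower estimate. The 95% interval ran from a fold of 0.729 to one of 0.962.

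TKN1 was decided by 1 library. Its normalised counts were 1645 and 1196 in transitional A and B, against 1662 and 1628 in vegetative C and D. Transitional A thus lay between the vegetative values, and B lay below every other library. The log2 change was -0.23 (SE 0.14, limma adjusted p = 0.463), with an interval of 0.677 to 1.07 as a fold. Without transitional B the log2 change was -2.39e-05. Without transitional A it was -0.46. TKN1 was 1.38 times higher in A than in B (exact 95% counting interval 1.28 to 1.48). That log2 difference of 0.46 between replicates was larger than in 97.2% of the 5253 tested genes with a mean of 1000 to 10000 normalised counts. The vegetative pair differed by 0.03 on the same scale.

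With all libraries, TKN4 showed the smallest difference between stages. It had 1638 and 1545 normalised counts in transitional libraries A and B, against 1736 and 1624 in vegetative C and D. Transitional A lay just above vegetative D, so that the groups overlapped. TKN4 averaged 1591 ± 65.8 in transitional and 1680 ± 79.1 in vegetative meristems (SD, n = 2 each). The log2 change was -0.08 (SE 0.08, limma adjusted p = 0.678), and the interval, 0.832 to 1.08 as a fold, leaves room for a fall of the size estimated for TKN2 or TKN3 and for a small rise.

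**Figure D1:**
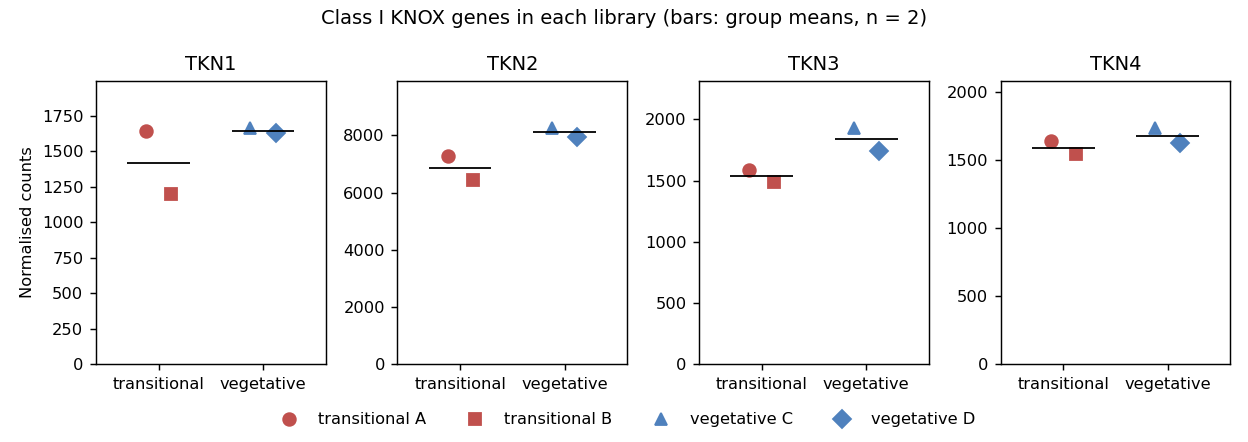
Normalised counts (y axis, from 0) of TKN1, TKN2, TKN3 and TKN4 in each library, with transitional A and B in red, vegetative C and D in blue, and bars at the group means. TKN2 and TKN3 lie lower in both transitional libraries than in both vegetative ones, whereas TKN1 is low only in transitional B, at 1196, and the TKN4 groups overlap.

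The same pair of libraries stood at the ends for the whole family. Vegetative C was the highest and transitional B the lowest library for all 4 genes, an order that 10.9% of tested genes showed. Without transitional A, TKN2 was called lower along with TKN1 (log2 change -0.33, limma adjusted p = 0.0389), so that 2 of the 4 were called lower where 2.44% of all genes were. Without transitional B, 0 of the 4 were called and 2.21% of all genes were called lower. Without vegetative C, or without D, limma called 0 genes of any kind, although 1577 and 1867 had an unadjusted p under 0.05. TKN3 and TKN4 were not called in any of these fits, and no estimate of the 4 genes turned positive.

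**Figure D2:**
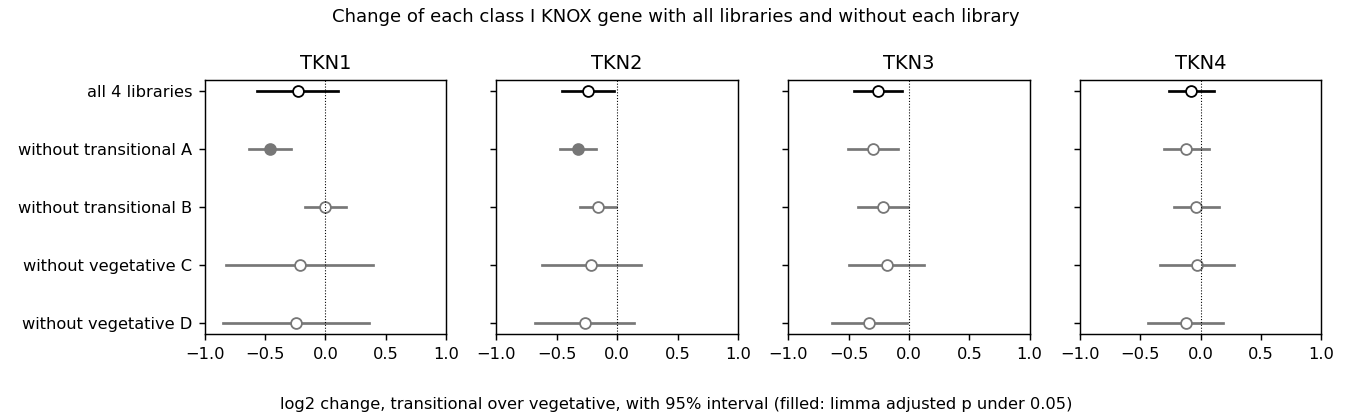
The log2 change of each gene, transitional over vegetative, with its 95% interval (x axis), for all 4 libraries and with each library left out (rows). Filled points have an adjusted p under 0.05 and occur for TKN1, at -0.46, and TKN2, at -0.33, without transitional A, while the TKN1 estimate lies at 0 without transitional B.

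The size of these estimates can be set beside what passed the test at a similar level. Among the 5253 tested genes with a mean of 1000 to 10000 normalised counts, which hold all 4 members, 181 were called, and the smallest absolute log2 change among those called was 0.35. The median absolute change between stages was 0.10 in these genes, the median absolute difference between transitional A and B was 0.12, and that between vegetative C and D was 0.06. The estimates for TKN1, TKN2 and TKN3 lay above these medians and below the smallest change called, and TKN4 lay below the median between stages. Of the same 5253 genes, 33.1% stood lower in both transitional libraries than in both vegetative ones.

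Summed over the 4 genes, the family had 12133 and 10688 normalised counts in transitional libraries A and B, against 13581 and 12950 in vegetative C and D. The groups did not overlap, and the mean total was 13.99% lower at the transition, 11410 ± 1022 in transitional against 13266 ± 446 in vegetative meristems (SD, n = 2 each). The exact two-sided permutation test gave p = 0.33, the smallest that 2 libraries against 2 allow (0.556 adjusted over the total and the 4 shares). As a log2 ratio of means the difference was -0.22, and it was -0.13 without transitional B and -0.31 without transitional A. With all libraries, TKN2 made up 66.9% of the difference in the total, TKN3 16.2%, TKN1 12.1% and TKN4 4.76%.

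With all libraries, the mean share of each gene in the family's reads differed between the stages by at most 1.32 percentage points. TKN2 held 59.9% and 60.4% of the family's reads in transitional A and B, against 60.8% and 61.4% in vegetative C and D. TKN1, TKN3 and TKN4 each held between 11.2% and 14.5% in every library. A longer transcript yields more reads, and no transcript lengths were used here, so these are shares of reads and set no order of transcript numbers between the genes. The 95% Wilson intervals of the shares cover counting error only.

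The share of TKN4 was 13.5% (interval 12.9% to 14.1%) and 14.5% (13.8% to 15.1%) in transitional A and B, against 12.8% (12.1% to 13.5%) and 12.5% (12.0% to 13.1%) in vegetative C and D. With all libraries, the mean share was thus 1.32 percentage points higher at the transition, without overlap, with an exact two-sided permutation p of 0.33 (0.556 adjusted over the total and the 4 shares). Leaving out each library gave differences of 0.84 (without transitional B) to 1.80 points (without transitional A). The TKN2 mean share differed by -0.94 points, also without overlap, and by -1.26 to -0.62 points without each library. TKN1 and TKN3 shares differed by -0.03 and -0.34 points, and their groups overlapped. Their differences ran from -1.22 to 1.15 points for TKN1 and from -0.79 to 0.11 points for TKN3 without each library, so that neither kept its sign.

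Of the 6 pairs of members, 2 had ratios that did not overlap between stages, counted in either direction, and both involved TKN4. When 2 libraries against 2 are relabelled, a share of 0.33 of the arrangements has no overlap. The count of 2 in 6 is not above that share. The log2 ratio of TKN3 to TKN4 was -0.05 in both transitional libraries, against 0.15 and 0.10 in vegetative C and D. The log2 ratio of TKN2 to TKN4 was 2.15 and 2.06 in transitional A and B, against 2.25 and 2.29 in vegetative C and D. Both ratios were lower at the transition, as was the ratio to TKN4 of 13.6% of all tested genes, again without overlap. That 13.6% covers the lower direction alone. The exact two-sided permutation test gave p = 0.33 for each of these pairs, its smallest possible value with 2 libraries against 2, and 1 after adjustment over the 6 pairs.

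**Figure D3:**
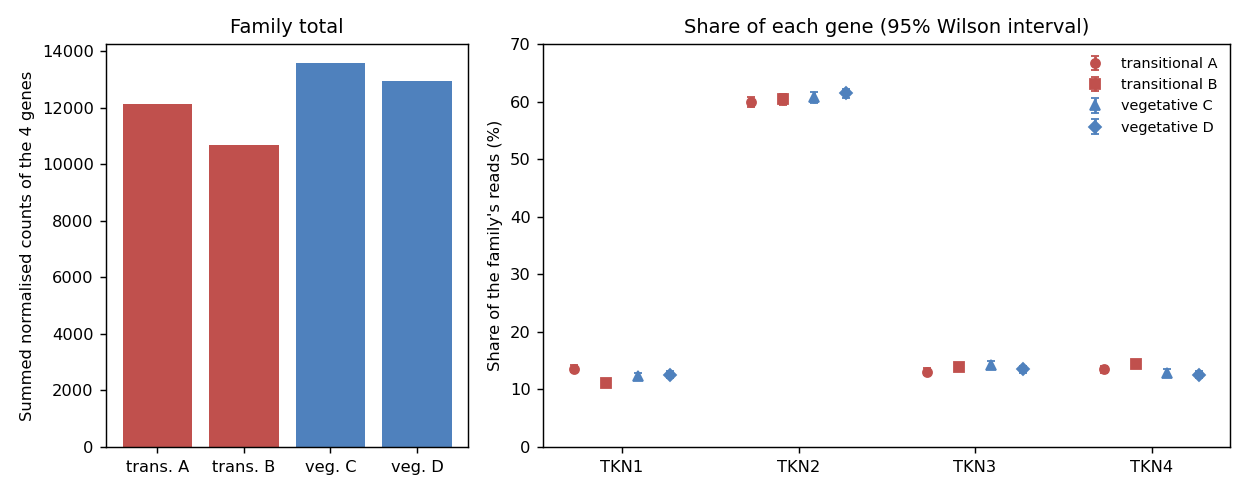
Left, the summed normalised counts of the 4 genes in each library (bars, from 0), which are 12133 and 10688 in the transitional libraries and 13581 and 12950 in the vegetative ones. Right, each gene's share of the family's reads in percent with its 95% Wilson interval, where TKN2 holds 59.9% to 61.4% in every library and TKN4 is a little higher in transitional libraries than in vegetative ones.

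Each member had other genes with a pattern like its own. Likeness was measured as the distance between the log2(value + 1) values of the 4 libraries after each gene's mean was subtracted, among 14599 other tested genes whose mean reached 100 normalised counts. Within a distance of 0.1 lay 57 genes for TKN1 (0.39%), 427 for TKN2 (2.92%), 279 for TKN3 (1.91%) and 1245 for TKN4 (8.53%). The distance is not scaled for the size of change, so genes that hardly change lie near a member that changes little. The nearest to TKN1 was Solyc12g006350.1, with 220 and 158 normalised counts in transitional libraries A and B against 221 and 214 in vegetative C and D. The nearest to TKN2 was Solyc06g074810.2, with 869 and 768 in transitional A and B against 982 and 950 in vegetative C and D. Neither was called. Among the members themselves, TKN2 and TKN3 were the closest pair, at a distance of 0.09, and 296 other genes lay nearer to TKN2 than TKN3 did.

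Genes that act with or around class I KNOX proteins were read from identifier lists recalled from the published names of tomato genes. A RefSeq symbol was looked up for 27 entries, and all 27 symbols lie on the chromosome written in the identifier. These 27 do not include, among others, the entries CLAUSA and PHANTASTICA, or the BELL gene and the cytokinin gene called below. They also leave out the GA20ox gene tested beside GA20OX1, so these names were not checked in this way. No identifier is paired with a name in the table, and each gene is called here by the name under which it was entered. Across all tested genes the median log2 change was 0.01, with 2.70% called higher and 1.19% lower. The calls below are those of limma with all 4 libraries and the filter on low values. None of them was made without vegetative C, without D, or without the filter, where limma called 6 genes higher and 1 lower in all.

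Of the genes for KNOX partner proteins, 1 passed the test. BELL homeodomain proteins, which pair with KNOX proteins and carry them into the nucleus, were entered as 13 identifiers, of which 11 were tested. Of these 1 rose and none fell, and the median log2 change was 0.25. The gene that rose had 235 and 291 normalised counts in transitional libraries A and B, against 130 and 140 in vegetative C and D (log2 change 0.95, limma adjusted p = 0.0225), and it was not called without transitional B. The BELL gene with the most reads had 10666 and 12720 in transitional A and B, against 10757 and 10297 in vegetative C and D, and its groups overlapped.

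Class II KNOX genes, relatives that act in differentiating tissue rather than in the meristem, gave no call. Of 4 identifiers 3 were tested and 1 had no read, and the median log2 change was -0.25. The gene entered as T12 (LeT12) had 1819 and 1543 normalised counts in transitional libraries A and B, against 2083 and 1912 in vegetative C and D (log2 change -0.25, limma adjusted p = 0.254). Its estimate was of the size of that of TKN2.

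Of 7 genes that shape KNOX activity or leaf form in tomato, 1 fell and none rose, and 6 of the 7 had an estimate below 0. The gene that fell was entered as CLAUSA, a MYB factor known in tomato leaves to restrain KNOX expression. It had 749 and 936 normalised counts in transitional libraries A and B, against 1431 and 1250 in vegetative C and D (log2 change -0.68, SE 0.13, limma adjusted p = 0.0332). The gene entered as PHANTASTICA, a MYB factor of leaf differentiation whose relatives keep KNOX genes off in leaves, had 8980 and 9801 in transitional A and B against 11846 and 13007 in vegetative C and D, and was not called (adjusted p = 0.0734). PTS, which encodes a KNOX-like protein without a homeodomain, and LYR, a regulator of leaflet formation, were not called (adjusted p = 0.451 and 0.126). GOBLET, a NAC factor of organ boundaries entered as NAM, had a log2 change of 0.09 and was not called. DESeq2 called 3 of the 7 lower, and 317 of all 19226 genes it tested. The limma calls of the 7 changed when transitional B was left out.

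Among these lists, the GA20ox genes had the largest median log2 change, 4.23. Of the 4 GA20ox identifiers, enzymes of gibberellin synthesis that KNOX proteins are known to repress, 2 were tested and both rose. GA20OX1 had 163 and 105 normalised counts in transitional libraries A and B, against 12.4 and 4.89 in vegetative C and D (log2 change 3.89, SE 0.45, limma adjusted p = 0.00636). The other had 209 and 126, against 11.0 and 2.93 (log2 change 4.57, limma adjusted p = 0.0069). In vegetative D, 2.93 corresponds to 3 reads, so few vegetative reads decide the size of change of these 2 genes. Both were called without either transitional library in turn. Of the 5 GA2ox identifiers, enzymes of gibberellin breakdown, 2 were tested and neither was called, with log2 changes of -1.54 and -1.64. GA2ox5 had 69.9 and 22.3 in transitional A and B, against 174 and 78.3 in vegetative C and D, and its groups did not overlap. Without transitional A, 1 of these was called lower.

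In the cytokinin list, 6 identifiers of synthesis (IPT) and of response (type-A response regulators, genes switched on by the hormone), 5 were tested, 1 rose and none fell, and the median log2 change was 0.71. The gene that rose, entered as a response regulator, had 263 and 429 normalised counts in transitional libraries A and B, against 119 and 59.7 in vegetative C and D (log2 change 1.98, SE 0.35, limma adjusted p = 0.0269). Without transitional B it was not called. The entry IPT3 of cytokinin synthesis had 22.3 and 6.07, against 8.28 and 3.91, where few reads decide, and IPT4 had no read in any library, where 3 reads of a library correspond to 0.13 to 0.186 CPM. DESeq2 called 3 of the list higher, and 597 of all 19226 genes it tested. The limma calls of the list changed when either transitional library was left out, without transitional B also in direction. The entry with an estimate below 0 had 1768 and 3444 in transitional A and B, against 3060 and 2983 in vegetative C and D. Transitional A thus lay below both vegetative values and B above them.

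**Figure D4:**
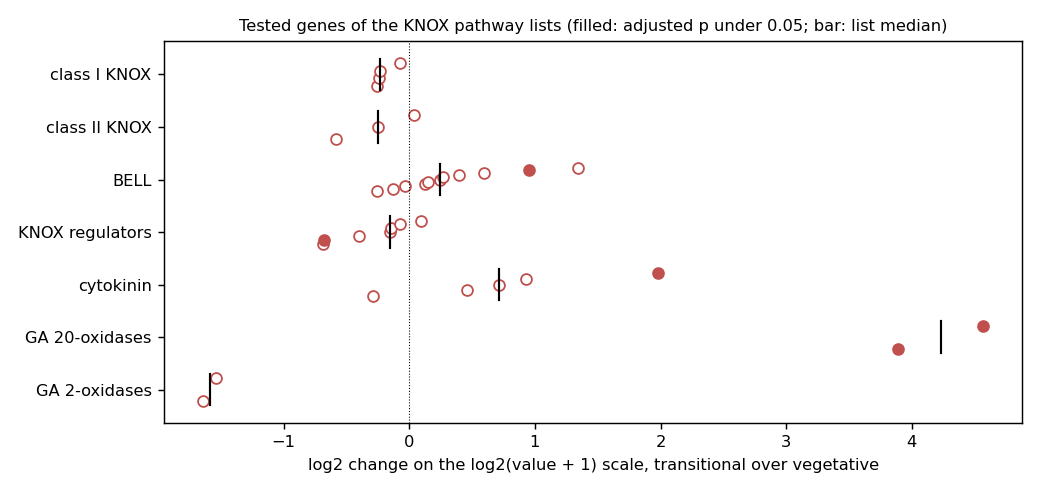
The log2 change of each tested gene, transitional over vegetative (x axis), by list (rows), with filled points at an adjusted p under 0.05 and a bar at the list median. The 4 class I KNOX genes lie between -0.26 and -0.08, whereas the 2 tested GA20ox genes lie at 3.89 and 4.57.

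Leaf tissue carried along with a meristem was read from separate lists, and its part in the KNOX values was not tested. The 6 YABBY genes, which mark the lower (abaxial) side of young leaves, gave no call, 5 of 6 had an estimate below 0, and the median log2 change was -0.30. Their summed level was 9200 and 10740 normalised counts in transitional libraries A and B, against 10365 and 12859 in vegetative C and D, and none stood at 0. Of 15 leaf photosynthesis identifiers, 13 were tested, 1 fell and none rose, with a median log2 change of -0.03. Their sum was 12678 and 7817 in transitional A and B, against 10077 and 12380 in vegetative C and D. Of the 15, 13 had more in transitional A than in B and 1 had no read in any library, while 5 of the 6 YABBY genes had less in A than in B. Among all tested genes 52.6% had more in A than in B. The limma calls of both lists changed when transitional B was left out, and those of the photosynthesis list also when transitional A was. Either fit called more genes in both directions over the whole table than the fit with all libraries.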

How the data were processed

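The authors deposited normalised signal values, that is, reads per gene scaled by a size factor for each library. TopHat2 2.0.10, HTSeq 0.6.1p1 and DESeq2 1.6.3 are named per the submitters' processing notes, without a role. The genome build, the annotation and the treatment of strand, overlapping genes and near-identical copies are, in the sources used here, not given. In every library 100% of values were whole multiples of 1 step (relative tolerance 1e-06), which returned whole reads. Log2(value + 1) values of genes with a mean of at least 5 were fitted with limma 3.58.1 (trend) in R 4.3.3, with group as the only term (residual degrees of freedom 2, prior 5.18). Fold changes on this scale understate those of low genes. edgeR 4.0.16, run on recovered reads, called 485 genes higher and 207 lower, against 529 and 233 by limma. DESeq2 1.42.0, limma-voom, other scalings, filters and pseudocounts and leaving out each library were alternatives. The scripts were tested on simulated data. Permutation tests used SciPy 1.17.1 in Python 3.11.15. The members and lists were chosen with earlier results of these data known. Besides the members, the rule named the nearest gene in pattern to each, limited to 2 identifiers that stood lower. None of 34722 identifiers matched the RefSeq table (assembly SLM_r2.1), which served for symbols and chromosomes. Intervals on reads cover counting error only. Vegetative libraries carry the letters C and D in their titles, used here, and A and B in their descriptions.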

Additional observations from a re-analysis of the deposited data

How the results depend on the processing

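With all libraries, 10 alternatives gave log2 changes of -0.23 to -0.21 for TKN1, -0.25 to -0.24 for TKN2, -0.26 to -0.25 for TKN3 and -0.08 to -0.07 for TKN4, and none called a member (adjusted p from 0.169 to 0.9998). Leaving out each library gave -0.46 to -2.39e-05 for TKN1, -0.33 to -0.16 for TKN2, -0.33 to -0.18 for TKN3 and -0.13 to -0.03 for TKN4. Over all genes, the calls were 529 higher and 233 lower, 6 and 1 without a filter, and 0 to 776 higher and 0 to 478 lower without each library; the cause was not tested. Without each library, the called counts ran from 0 to 1 for BELL genes, 0 to 3 for KNOX regulators, 0 to 2 for GA20ox, 0 to 1 for GA2ox and 0 to 3 for cytokinin genes, assuming that a lone library varies like the other group. The scale per coding length was not run, since no coding lengths were used here. No paired analysis was run, since the labels give no pairing of libraries between the groups. With 2 libraries a group, changes near those of the KNOX genes were not called at this depth.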
